A study of Mus musculus with 12 samples.

Results

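Genes of TAB-TAK1 and NF-kB signaling, 10 in number, were followed by symbol through the count and CPM tables of thymic *i*NKT cells that overexpress miR-155, namely *Tab1*, *Tab2*, *Tab3*, *Map3k7*, *Traf1*, *Traf6*, *Nfkb1*, *Nfkbia*, *Tnfaip3* and *Rel*. All 10 were among the 48709 rows of the tables, and all 10 passed the filter on low counts in every comparison. The *i*NKT, or invariant natural killer T, cells carry a semi-invariant receptor for lipids shown by CD1d, and those with NK1.1 on their surface are the more mature ones in the thymus. Libraries of 4 groups were compared, with 3 libraries each, from NK1.1+ cells of miR-155KI and WT mice and from NK1.1- cells of miR-155KI and WT mice, all C57BL/6J and 7 weeks old. In miR-155KI mice both *Rosa26* alleles carry a miR-155 knock-in that a CD4Cre transgene switches on, which acts from the CD4+CD8+ stage onward in all T cells and not in *i*NKT cells alone. The WT mice are littermates that carry the knock-in allele without the Cre, so the groups differ in the Cre transgene as well as in miR-155. The study's methods speak of biological replicates pooled for sequencing, whereas the tables hold 3 libraries a group, and no source used here says how many mice a library stands for. The p-values and n = 3 therefore refer to libraries, which may be pools or may differ only technically.

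TAK1, the kinase encoded by *Map3k7*, is activated by receptors for antigen, interleukin 1, Toll-like ligands and TNF. TAB2 and TAB3 bring it to ubiquitin chains that TRAF proteins build or organize, TAB1 activates it directly, and TAK1 then switches on the IKK complex. IKK marks IkB proteins for destruction and so frees NF-kB dimers to enter the nucleus. Several NF-kB target genes act back on the pathway, among them *Nfkbia* and *Tnfaip3*, which shut it down, and *Traf1*, *Rel* and *Nfkb1*. In *i*NKT cells NF-kB is needed for development in the thymus.

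The overexpressed microRNA pairs with its targets through bases 2 to 8, the seed, given in capitals in the mature mmu-miR-155-5p at chr16:84714143-84714165 on the plus strand (RefSeq, GRCm38.p6), because the sites in the members are defined by it.
mmu-miR-155-5p: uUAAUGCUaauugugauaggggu
Annotated 3′ UTRs of the members (GENCODE M21, GRCm38) were searched on the mRNA strand for AGCATTAA (8 bases), AGCATTA and GCATTAA (7 bases, counted only where outside the longer match). *Tab2* held 1 match of 8 bases, *Tab3* held 2 of GCATTAA, *Traf6* held 1 of GCATTAA, and the other 7 members held none. The matches are shown in capitals within 30 bases of the 3′ UTR, read along the mRNA.
*Tab2*, chr10:7906685-7906714, minus strand: atgccataaggtagaaAGCATTAAtgaaat
*Tab3*, chrX:85631617-85631646, plus strand: ccaacatcataaagttGCATTAAtgaagga
*Tab3*, chrX:85631701-85631730, plus strand: gaagcacggtagcctgGCATTAAcaaggtg
*Traf6*, chr2:101700248-101700277, plus strand: tgaagaggagaaaagtGCATTAAagtacaa
The *Tab2* match began at base 737 of a 3′ UTR of 1782 bases. The sequence of 8 bases was present in 664 of 21004 genes with an annotated 3′ UTR (3.16%), and in 3.49% of the genes whose 3′ UTR was within 25% of the *Tab2* length. Any of the matches was present in 13.3% of all genes with a 3′ UTR, but in 33% of genes with one near the length of *Tab3* and 34.9% near that of *Traf6*, so these short matches were common at such lengths.

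Depth was 12819476 to 20518257 counts per library, and levels are given in CPM, counts scaled to library size with TMM factors that even out differences in RNA composition. *Mir155hg*, the host gene of miR-155, had 144, 137 and 131 CPM in miR-155KI NK1.1- libraries, against 13, 13.6 and 9.64 CPM in WT NK1.1- libraries, and 116, 128 and 95.1 CPM in miR-155KI NK1.1+ libraries, against 12.1, 11.7 and 11.1 CPM in WT NK1.1+ libraries. Markers of T cells were present in all groups, with *Cd3e* between 576 and 1046 CPM, and *Klrb1c*, which encodes NK1.1, had 358 to 773 CPM in NK1.1+ and 36.6 to 79.7 CPM in NK1.1- libraries. The WT libraries were not alike. The miR-155KI libraries had 8.18 to 35 CPM of *Xist*, the RNA of the inactive X chromosome, WT replicate 1 had 12.6 CPM in NK1.1- and 11.4 CPM in NK1.1+ cells, and WT replicates 2 and 3 had 135 to 237 CPM. The Y-linked gene *Ddx3y* had 55.4 to 76.6 CPM in miR-155KI libraries and 52.4 and 62.5 CPM in WT replicate 1, but 3.29 to 6.91 CPM in WT replicates 2 and 3. In sex-linked RNA all miR-155KI libraries were thus like WT replicate 1 and unlike WT replicates 2 and 3. Genotype and this difference cannot be told apart where WT replicates 2 and 3 are used. The sex of the mice is not given per library. Genotype results of the members, and of most lists in NK1.1- cells, are therefore given with and without WT replicates 2 and 3. Most single genes of the lists are given with all WT libraries only.

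In miR-155KI NK1.1- cells, transcripts of the TAK1 adaptor *Tab2* and of the TRAF family member *Traf1* were lower than in WT cells, and *Tab1* and *Map3k7* differed little. *Tab2* was at 0.635 and *Traf1* at 0.691 of the WT level. *Tnfaip3* and *Rel* had the largest differences of the 10 genes, but their WT libraries were far apart and neither passed the test. Of the 10 genes 2 were lower and none was higher by edgeR's quasi-likelihood test at an adjusted p under 0.05, where 3.44% of 13304 genes were called in either direction. The ranges of the libraries did not overlap for 3 of the 10 genes, all lower in miR-155KI, against 9.9% of all genes lower and 13.2% higher. The median log2 fold change of the 10 genes was -0.59, beside -0.00 over all genes tested. In bulk RNA from sorted cells, fewer cells of one type and less RNA per cell cannot be told apart.

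**Figure D1:**
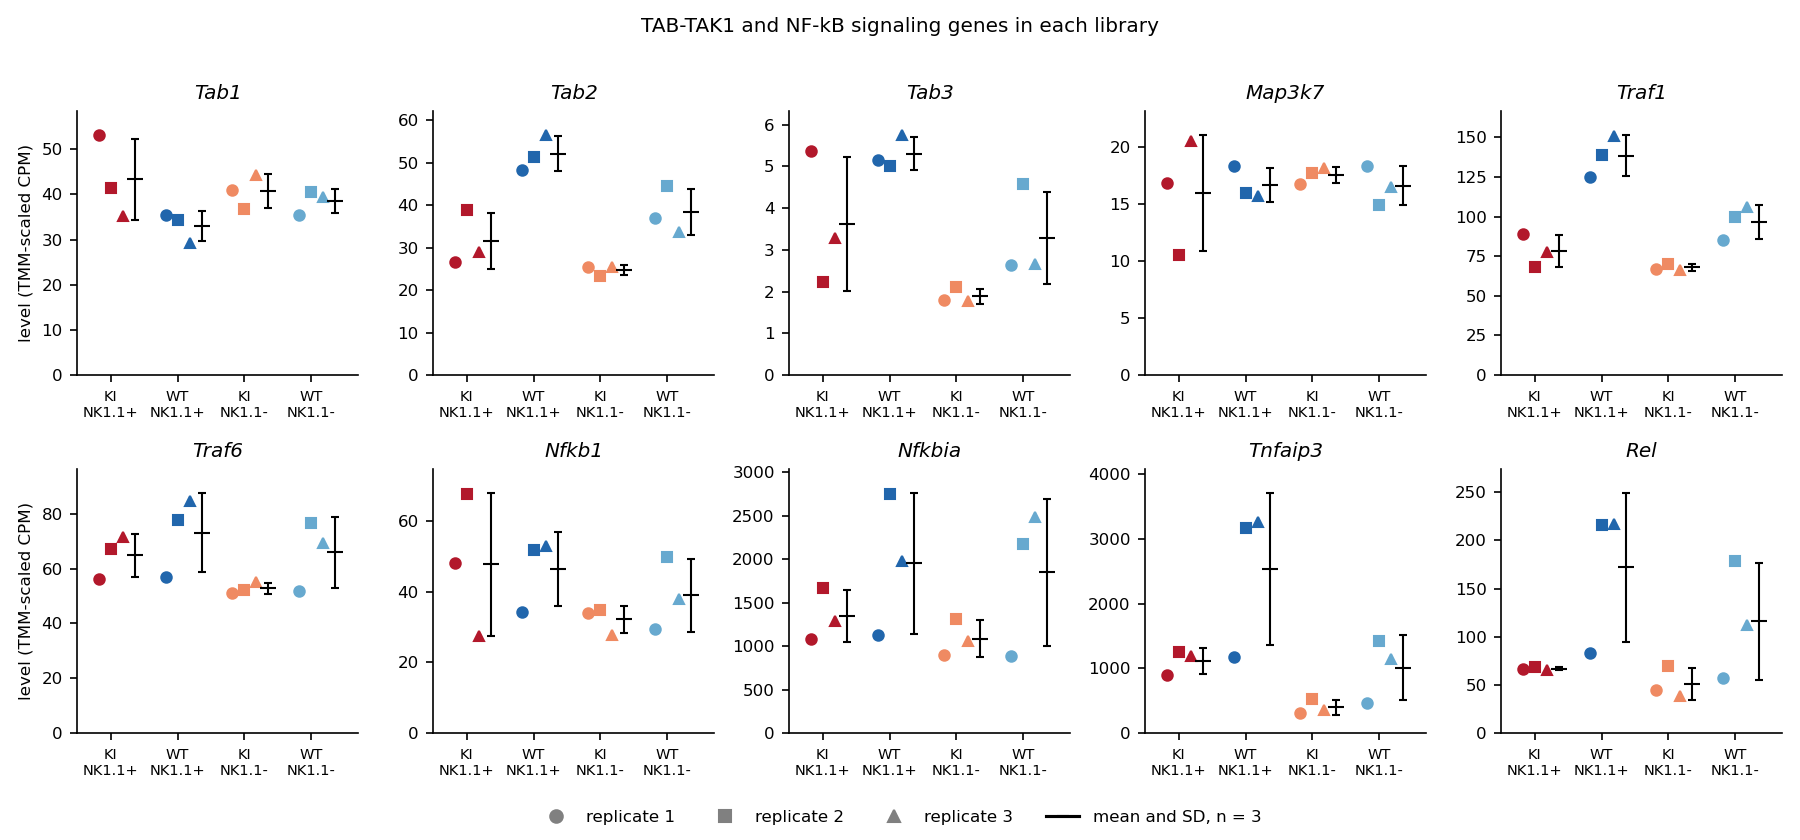
Level of each of the 10 genes in every library, in TMM-scaled CPM, with miR-155KI and WT libraries side by side in NK1.1+ and then NK1.1- cells (KI, miR-155KI; shapes, replicate numbers; bars, mean and SD of 3 libraries). The miR-155KI libraries of *Tab2* and *Traf1* lie below all WT libraries of their pool, and WT replicate 1 lies far below the other WT libraries for *Nfkbia*, *Tnfaip3* and *Rel*.

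*Tab2* (ENSMUSG00000015755, chr10:7905653-7956230, minus strand) encodes the adaptor that docks TAK1 to ubiquitin. In NK1.1- cells it had 25.4, 23.4 and 25.5 CPM in miR-155KI libraries, against 37, 44.5 and 33.8 CPM in WT libraries. The miR-155KI libraries were close to each other and all lay below the lowest WT library, replicate 3. The log2 fold change was -0.66 (SE 0.16, adjusted p = 0.0382, edgeR's quasi-likelihood test with Benjamini-Hochberg adjustment). In NK1.1+ cells *Tab2* had 26.6, 39 and 28.9 CPM in miR-155KI libraries, against 48.4, 51.4 and 56.5 CPM in WT libraries. Here too the ranges were apart, with miR-155KI replicate 2 nearest to the WT libraries. The log2 fold change was -0.74 (SE 0.20), a value that missed the threshold (adjusted p = 0.262 with edgeR). *Tab2* was picked out by the study as a predicted miR-155 target in these same libraries, so its direction here is not independent evidence. The study also measured *Tab2* by q-PCR in miR-155KI and WT *i*NKT cells, and describes it as repressed in miR-155KI cells. The call in NK1.1- cells was narrow. It was lost without WT replicate 2 (log2 fold change -0.52, edgeR adjusted p = 0.166), and without miR-155KI replicate 1, 2 or 3 (adjusted p = 0.122, 0.111 and 0.0838 with edgeR), while the log2 fold change over the 18 alternatives tried lay between -0.75 and -0.52, with the call made in 8 of them.

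*Tab1* (chr15:80133127-80161707, plus strand), the activating subunit, had 41, 36.8 and 44.3 CPM in miR-155KI NK1.1- libraries, against 35.5, 40.6 and 39.5 CPM in WT NK1.1- libraries. In NK1.1+ cells it had 53.1, 41.5 and 35.3 CPM in miR-155KI libraries, against 35.4, 34.3 and 29.3 CPM in WT libraries. The ranges overlapped in both pools, and the log2 fold changes were 0.06 (SE 0.14) in the NK1.1- pool and 0.38 (SE 0.21) in the NK1.1+ pool. The kinase gene *Map3k7* (chr4:31964097-32023467, plus strand) had 16.7, 17.7 and 18.1 CPM in miR-155KI NK1.1- libraries, against 18.3, 14.9 and 16.5 CPM in WT NK1.1- libraries. In NK1.1+ cells it had 16.8, 10.5 and 20.5 CPM in miR-155KI libraries, against 18.3, 15.9 and 15.7 CPM in WT libraries. The miR-155KI NK1.1+ libraries enclosed all WT ones, and the log2 fold changes were 0.06 (SE 0.17) in the NK1.1- pool and -0.08 (SE 0.31) in the NK1.1+ pool. *Tab3* (chrX:85574022-85634469, plus strand), which can stand in for TAB2 at TAK1, was the scarcest member, with 28 to 115 raw counts per library. It had 1.8, 2.1 and 1.77 CPM in miR-155KI NK1.1- libraries, against 2.65, 4.57 and 2.67 CPM in WT NK1.1- libraries. The ranges were apart, with a log2 fold change of -0.83 that carried a large error (SE 0.39, adjusted p = 0.281 with edgeR). In NK1.1+ cells *Tab3* had 5.36, 2.22 and 3.28 CPM in miR-155KI libraries, against 5.16, 5.01 and 5.75 CPM in WT libraries. The ranges overlapped through miR-155KI replicate 1, and the log2 fold change was -0.57 (SE 0.53).

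Per kilobase of exon, the ratio of *Tab2* to *Tab1* transcripts was 0.413 ± 0.0212 in miR-155KI and 0.676 ± 0.0861 in WT NK1.1- libraries, and 0.509 ± 0.154 in miR-155KI and 1.08 ± 0.198 in WT NK1.1+ libraries (SD, n = 3 each). This ratio lay lower in each miR-155KI library than in any WT library of its pool. The ratio of *Tab2* to *Map3k7* was 2.01, 1.74 and 1.86 in miR-155KI and 2.66, 3.94 and 2.69 in WT NK1.1- libraries, but its ranges overlapped in NK1.1+ cells, with 2.09, 4.92 and 1.85 in miR-155KI and 3.49, 4.26 and 4.74 in WT libraries. The ratio of *Tab2* to *Tab3* was not lower in miR-155KI, at 19.2 ± 2.66 in miR-155KI and 17.6 ± 3.13 in WT NK1.1- libraries and 15.2 ± 9.4 in miR-155KI and 14.3 ± 0.644 in WT NK1.1+ libraries. Levels per kilobase gave the order *Nfkbia*, *Tnfaip3*, *Traf1* at the top in every group, with *Map3k7* and *Tab3* last. *Nfkbia* averaged 689 ± 133 CPM per kb in miR-155KI and 1172 ± 535 CPM per kb in WT NK1.1- libraries, whereas *Tab3* averaged 0.297 ± 0.0293 CPM per kb in miR-155KI and 0.518 ± 0.173 CPM per kb in WT NK1.1- libraries. Between these ends the order was loose. In WT NK1.1- cells *Traf1*, *Rel*, *Tab1*, *Traf6* and *Nfkb1* each overlapped the next gene in the order, down to *Tab2*, which stood above *Map3k7* in every library.

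*Traf1* (chr2:34941750-34961772, minus strand) encodes a TRAF protein without the ligase domain of its relatives, and it is both a partner of TNF receptors and a target of NF-kB. In NK1.1- cells it had 67.2, 70.4 and 66.4 CPM in miR-155KI libraries, against 85.1, 99.5 and 106 CPM in WT libraries. No miR-155KI library reached the lowest WT library, replicate 1. The log2 fold change was -0.53 (SE 0.12, adjusted p = 0.0282 with edgeR). The call was lost without WT replicate 2 or 3 (edgeR adjusted p = 0.108 and 0.0878) and without miR-155KI replicate 1, 2 or 3 (edgeR adjusted p = 0.125, 0.0656 and 0.0973), and the log2 fold change over the 18 alternatives lay between -0.62 and -0.32. In NK1.1+ cells *Traf1* had 88.9, 68.3 and 77.6 CPM in miR-155KI libraries, against 125, 139 and 151 CPM in WT libraries. The gap between the ranges was wide, and the log2 fold change was -0.84 (SE 0.16, adjusted p = 0.201 with edgeR, unadjusted p = 2.82e-04). *Traf6* (chr2:101678429-101701669, plus strand), the ubiquitin ligase of the interleukin 1 and Toll-like receptors, had 51.1, 52.2 and 55.1 CPM in miR-155KI NK1.1- libraries, against 51.7, 76.6 and 69.5 CPM in WT NK1.1- libraries. WT replicate 1 lay among the miR-155KI libraries and the other WT libraries above them. In NK1.1+ cells *Traf6* had 56.2, 67.3 and 71.4 CPM in miR-155KI libraries, against 56.9, 77.8 and 84.7 CPM in WT libraries, with the same position of WT replicate 1. Its log2 fold changes were -0.34 (SE 0.15) in the NK1.1- pool and -0.19 (SE 0.19) in the NK1.1+ pool, and neither passed the test (adjusted p = 0.237 and 0.745 with edgeR).

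In NK1.1+ cells none of the 10 genes passed the test, as against 0.0231% of 12991 genes, that is 3 genes. At an unadjusted p under 0.05 by edgeR, 4 of the 10 genes passed, all lower in miR-155KI (*Tab2*, *Traf1*, *Tnfaip3* and *Rel*), beside 1539 of all genes (11.8%). DESeq2 called *Traf1*, *Tnfaip3* and *Rel* there (adjusted p = 0.00116, 0.0042 and 7.71e-04), as 3 of the 241 genes it called. Ranges of the libraries did not overlap for *Tab2*, *Traf1* and *Rel*, all lower, against 8.33% of all genes lower and 8.49% higher. The median log2 fold change of the 10 genes was -0.56, beside 0.02 over all genes. The biological coefficient of variation was 0.369 in this pool and 0.211 in NK1.1- cells.

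**Figure D2:**
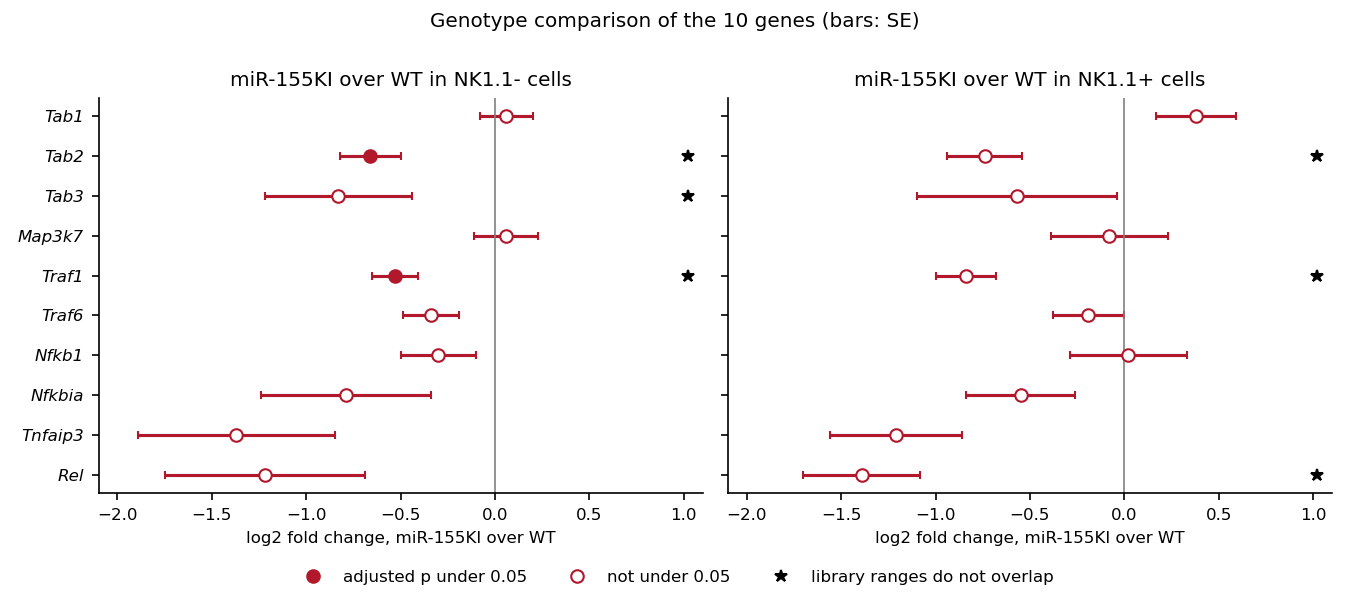
Log2 fold change, miR-155KI over WT, of the 10 genes with the SE as bars, the NK1.1- pool on the left and the NK1.1+ pool on the right. Filled points have an adjusted p under 0.05 by edgeR's quasi-likelihood test, and stars mark genes whose library ranges do not overlap: *Tab2*, *Tab3* and *Traf1* in NK1.1- cells and *Tab2*, *Traf1* and *Rel* in NK1.1+ cells.

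*Rel* (chr11:23736847-23770970, minus strand) encodes c-Rel, an NF-kB subunit of activated lymphocytes. It had 45.1, 69.5 and 38 CPM in miR-155KI NK1.1- libraries, against 57.3, 179 and 112 CPM in WT NK1.1- libraries. WT replicate 1 fell within the miR-155KI range, and WT replicates 2 and 3 stood above it. The log2 fold change was -1.22 (SE 0.53, adjusted p = 0.331 with edgeR). In NK1.1+ cells *Rel* had 66.2, 68.5 and 65.7 CPM in miR-155KI libraries, against 82.8, 216 and 217 CPM in WT libraries. The miR-155KI libraries were nearly equal, WT replicate 1 was just above them, and the other WT libraries were far above. The log2 fold change was -1.39 (SE 0.31, adjusted p = 0.201 with edgeR). *Nfkb1* (chr3:135584655-135691547, minus strand), which encodes the precursor of another subunit, had 34.1, 34.9 and 27.8 CPM in miR-155KI NK1.1- libraries, against 29.4, 49.8 and 37.9 CPM in WT NK1.1- libraries. It had 48.1, 67.9 and 27.5 CPM in miR-155KI NK1.1+ libraries, against 34.3, 52 and 53 CPM in WT NK1.1+ libraries. The ranges overlapped, and the log2 fold changes were -0.30 (SE 0.20) in the NK1.1- pool and 0.02 (SE 0.31) in the NK1.1+ pool.

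The inhibitors were the most abundant members per kilobase, and their WT libraries were as uneven as those of *Rel*. *Nfkbia* (chr12:55489410-55492647, minus strand), which encodes the inhibitor IkB alpha, had 896, 1312 and 1056 CPM in miR-155KI NK1.1- libraries, against 892, 2176 and 2482 CPM in WT NK1.1- libraries. It had 1088, 1674 and 1290 CPM in miR-155KI NK1.1+ libraries, against 1129, 2748 and 1980 CPM in WT NK1.1+ libraries. In each pool WT replicate 1 was as low as the lowest miR-155KI libraries, and the log2 fold changes were -0.79 (SE 0.45) in the NK1.1- pool and -0.55 (SE 0.29) in the NK1.1+ pool. *Tnfaip3* (chr10:19000910-19015657, minus strand), which encodes a ubiquitin-editing enzyme that ends TNF and antigen receptor signals, had 313, 531 and 354 CPM in miR-155KI NK1.1- libraries, against 459, 1424 and 1151 CPM in WT NK1.1- libraries. It had 889, 1259 and 1185 CPM in miR-155KI NK1.1+ libraries, against 1178, 3160 and 3260 CPM in WT NK1.1+ libraries. Again WT replicate 1 lay within the miR-155KI range of its pool. The log2 fold changes were -1.37 (SE 0.52, adjusted p = 0.284 with edgeR) in the NK1.1- pool and -1.21 (SE 0.35, adjusted p = 0.273 with edgeR) in the NK1.1+ pool.

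The spread among WT libraries thus divided the members. WT replicates 2 and 3 averaged 2.61 times WT replicate 1 in NK1.1- and 2.09 times in NK1.1+ cells for *Nfkbia*, 2.81 and 2.73 times for *Tnfaip3*, and 2.54 and 2.62 times for *Rel*. Among genes averaging 10 CPM or more, 1.23% of 8515 (NK1.1-) and 2.46% of 8469 (NK1.1+) were more than 2-fold higher in WT replicates 2 and 3. For *Tab2* the same ratios were 1.06 and 1.12, and for *Traf1* 1.21 and 1.16. WT replicate 1 held *Tab2* and *Traf1* above the miR-155KI range in both pools. With WT replicate 1 as the only WT library, the log2 fold changes in NK1.1- and NK1.1+ cells were -0.58 and -0.62 for *Tab2*, -0.32 and -0.68 for *Traf1*, -0.20 and -0.09 for *Tnfaip3*, -0.17 and -0.32 for *Rel*, and 0.29 and 0.25 for *Nfkbia*, whose direction turned. The direction also turned for *Traf6* (0.03 for the NK1.1- pool, 0.19 for the NK1.1+ pool), and for *Nfkb1* (0.14) and *Map3k7* (-0.07) of the NK1.1- pool. No member was called in either pool in that setting, in which the lone WT library is assumed to vary like the miR-155KI libraries. Without WT replicate 1, 5 members were lower in NK1.1- cells, where 3.97% of all genes were lower, namely *Tab2*, *Traf1*, *Traf6* (edgeR adjusted p = 0.035), *Nfkbia* (edgeR adjusted p = 7.78e-04) and *Tnfaip3* (edgeR adjusted p = 0.00287). In NK1.1+ cells 3 were lower, where 0.799% of all genes were, namely *Traf1* (edgeR adjusted p = 0.0445), *Tnfaip3* (edgeR adjusted p = 0.00469) and *Rel* (edgeR adjusted p = 8.19e-04). The ratio of Y-linked RNA to *Xist* set WT replicates 2 and 3 apart from all other libraries. With it as a covariate the genotype difference therefore rests mainly on WT replicate 1, and the loss of calls is no separate check. No member was called, and the log2 fold changes of *Tab2* were then -0.58 (NK1.1-) and -0.55 (NK1.1+) and those of *Tnfaip3* -0.23 and -0.18. The part of sex or of any other feature of WT replicate 1 in these members was not tested.

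**Figure D3:**
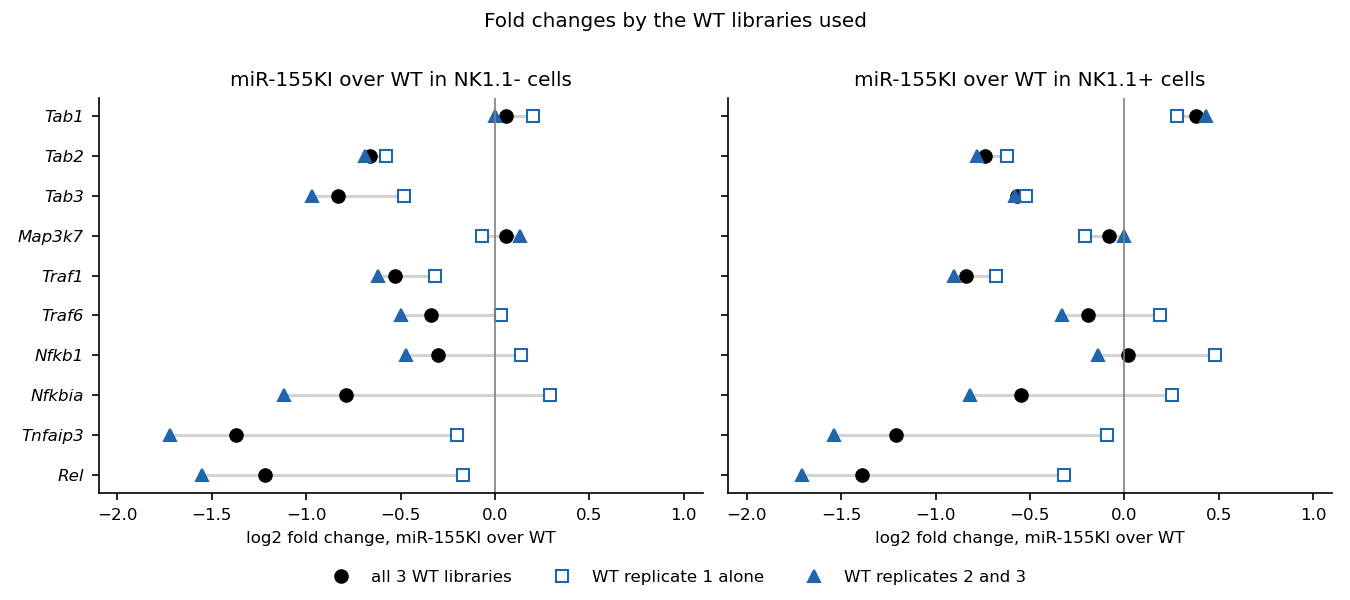
Log2 fold change, miR-155KI over WT, of the 10 genes in NK1.1- cells (left) and NK1.1+ cells (right) with all 3 WT libraries (circles), with WT replicate 1 alone (open squares) and with WT replicates 2 and 3 (triangles). The values of *Tab2* stay between -0.78 and -0.58, whereas those of *Tnfaip3*, *Rel* and *Nfkbia* move by more than 1 on the log2 scale with the WT libraries used.

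Because *Nfkbia*, *Tnfaip3* and *Rel* moved together across WT libraries, the RefSeq promoters of the members (GRCm38.p6, 8 of 10 members present) were searched on both strands for the NF-kB consensus of 10 bases. It was present in those of *Map3k7*, *Nfkbia*, *Tnfaip3* and *Rel* and in 2779 of 32851 promoters of the same length (8.46%). The promoters of *Tab1* and *Nfkb1* were not available and were not searched. The matches are in capitals within 30 bases that end at or before the start site, 5′ to 3′ along the gene.
*Nfkbia*, chr12:55492657-55492686, minus strand, match 29 bases before the start: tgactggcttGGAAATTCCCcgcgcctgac
*Tnfaip3*, chr10:19015411-19015440, minus strand, match 12 bases before the start: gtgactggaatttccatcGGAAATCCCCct
*Rel*, chr11:23771042-23771071, minus strand, 2 overlapping matches from 92 bases before the start: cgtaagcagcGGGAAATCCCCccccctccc
*Map3k7*, chr4:31964005-31964034, plus strand, match 92 bases before the start: ccccgggtcaGGAAATTCCCcgctcgggtc
*Tnfaip3* had another match 125 bases before its start. *Map3k7* carried the same 10 bases as *Nfkbia*, and its WT replicate 1 was slightly above the other WT libraries in both pools. The search was prompted by the levels in these libraries, and the part of such matches in the levels was not tested. A match is a run of letters and not a measured binding site.

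Other features of the libraries moved with the genotype. In NK1.1- cells 9 of 12 *i*NKT1 markers (summed level 854 to 1080 CPM in miR-155KI and 1537 to 1868 CPM in WT libraries) were lower by edgeR at an adjusted p under 0.05. So were 10 of 12 *i*NKT17 markers (52.3 to 80.5 CPM in miR-155KI and 182 to 294 CPM in WT libraries). Of the *i*NKT2 markers (4699 to 5013 CPM in miR-155KI and 3297 to 3547 CPM in WT libraries) 5 of 10 were higher. These were *Il17rb*, *Icos*, *Pdcd1*, *Slamf6* and *Lef1*. The other *i*NKT2 markers were not called, with log2 fold changes of 0.46 for *Il4*, 0.20 for *Zbtb16* and *Ccr7*, -0.02 for *Gata3* and -0.27 for *Il13*. Of all genes 3.44% were called in either direction. The median log2 fold changes of these lists were -0.89 (*i*NKT1), -2.72 (*i*NKT17) and 0.50 (*i*NKT2) with all WT libraries. With WT replicate 1 as the only WT library the medians were -0.71, -2.06 and 0.51 in the same order. Without WT replicate 1 they were -0.96, -2.75 and 0.51. The *i*NKT1 regulator *Tbx21* had 43.6 to 65.6 CPM in miR-155KI libraries, against 123 to 146 CPM in WT libraries, a difference of -1.23 on the log2 scale (SE 0.15). In NK1.1+ cells 2 of 13 myeloid markers tested were called higher, beside 0.0231% of all genes called in either direction. The list had a median log2 fold change of 3.38 and summed levels of 720 to 1504 CPM in miR-155KI and 367 to 503 CPM in WT libraries. *Lyz2* had 13.5 to 144 CPM and *C1qa* 18.5 to 68.9 CPM in miR-155KI NK1.1+ libraries, against 3.5 to 4.3 CPM and 1.51 to 2.58 CPM in WT NK1.1+ libraries. Markers of CD4+CD8+ thymocytes summed to 86.6 to 366 CPM in miR-155KI and 62.6 to 68.7 CPM in WT NK1.1+ libraries, highest in miR-155KI replicate 1, and those of B cells to 252 to 320 CPM in miR-155KI and 241 to 290 CPM in WT NK1.1+ libraries. In NK1.1- cells the B cell markers summed to 135, 95.2 and 84.2 CPM in miR-155KI libraries, against 301, 117 and 112 CPM in WT libraries, highest in WT replicate 1. The part of the *i*NKT subsets and of other cells in the members' levels was not tested.

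The difference between the genotype effects of the pools was tested directly over all 12 libraries. None of the 10 genes passed by edgeR's interaction test, and none had an unadjusted p under 0.05, where 0.0278% of 14401 genes were called and 1167 had an unadjusted p under 0.05. DESeq2 called none of the 10 genes either. The difference, NK1.1+ minus NK1.1-, was -0.09 (SE 0.25, edgeR adjusted p = 0.967) for *Tab2* and -0.31 (SE 0.19, edgeR adjusted p = 0.741) for *Traf1*. For *Tnfaip3* it was 0.15 with an SE of 0.67, so large differences in either direction were within the error of this fit. The fit does not use the pairing of the WT pools, so the offset of WT replicate 1 in both pools enters its error. Within replicate numbers *Tnfaip3* was 2.84, 2.37 and 3.35 times as high in NK1.1+ as in NK1.1- cells of miR-155KI mice. In WT mice it was 2.57, 2.22 and 2.83 times as high. The genotype comparisons of both pools enter this test and are not further evidence beside it.

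Between the pools, *Tnfaip3* had the largest difference of the 10 genes in both genotypes, and it was the member called in miR-155KI mice. In miR-155KI mice it had 889, 1259 and 1185 CPM in NK1.1+ libraries, against 313, 531 and 354 CPM in NK1.1- libraries, with no overlap. The log2 fold change was 1.48 (SE 0.21, adjusted p = 0.00136 with edgeR), and it stayed called without any of the 6 libraries in turn (edgeR adjusted p = 8.19e-04 to 0.015). It was not called when all 12 libraries shared 1 fit (edgeR adjusted p = 0.0672). Of the 10 genes 1 was higher and none lower in miR-155KI NK1.1+ cells, as against 14.1% of 12942 genes called in either direction, a share near the background. *Nfkb1*, with a log2 fold change of 0.57 (SE 0.30), was called higher only without miR-155KI NK1.1+ replicate 3 (edgeR adjusted p = 0.0391). In WT mice *Tnfaip3* had 1178, 3160 and 3260 CPM in NK1.1+ libraries, against 459, 1424 and 1151 CPM in NK1.1- libraries, a log2 fold change of 1.29 (SE 0.62, adjusted p = 0.237 with edgeR). The ranges overlapped through WT replicate 1, which was the lowest library of each pool.

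In WT mice same-numbered libraries of the pools deviated together, and within each number *Tnfaip3* was 2.57, 2.22 and 2.83 times as high in NK1.1+ as in NK1.1- cells. *Rel* was 1.44, 1.21 and 1.94 times, *Traf1* 1.47, 1.4 and 1.42 times and *Tab2* 1.31, 1.15 and 1.67 times as high in NK1.1+ cells. Without the pairing 1 of the 10 genes was higher in WT NK1.1+ cells, *Traf1* (log2 fold change 0.48, SE 0.13, adjusted p = 0.0238 with edgeR), as against 20.8% of 13555 genes called in either direction. *Traf1* lost the call without NK1.1- replicate 1 or 2 or NK1.1+ replicate 2 or 3 (edgeR adjusted p = 0.109, 0.0608, 0.0752 and 0.111). With the replicate number as a block 4 of the 10 genes were higher, *Tnfaip3* (1.31, edgeR adjusted p = 3.56e-06), *Rel* (0.55, edgeR adjusted p = 0.00506), *Traf1* (0.49, edgeR adjusted p = 0.00347) and *Tab2* (0.41, edgeR adjusted p = 0.0345), as against 29.9% of all genes called in either direction with the same block. The share called among the 10 genes was below that of all genes without the pairing and near it with the pairing. In miR-155KI mice *Traf1* had 1.32, 0.97 and 1.17 times and *Tab2* 1.04, 1.67 and 1.13 times the NK1.1- level in NK1.1+ cells, with log2 fold changes of 0.20 (SE 0.14) and 0.35 (SE 0.22). The WT pool comparison shares its libraries with the genotype comparisons, and the values are given side by side only.

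**Figure D4:**
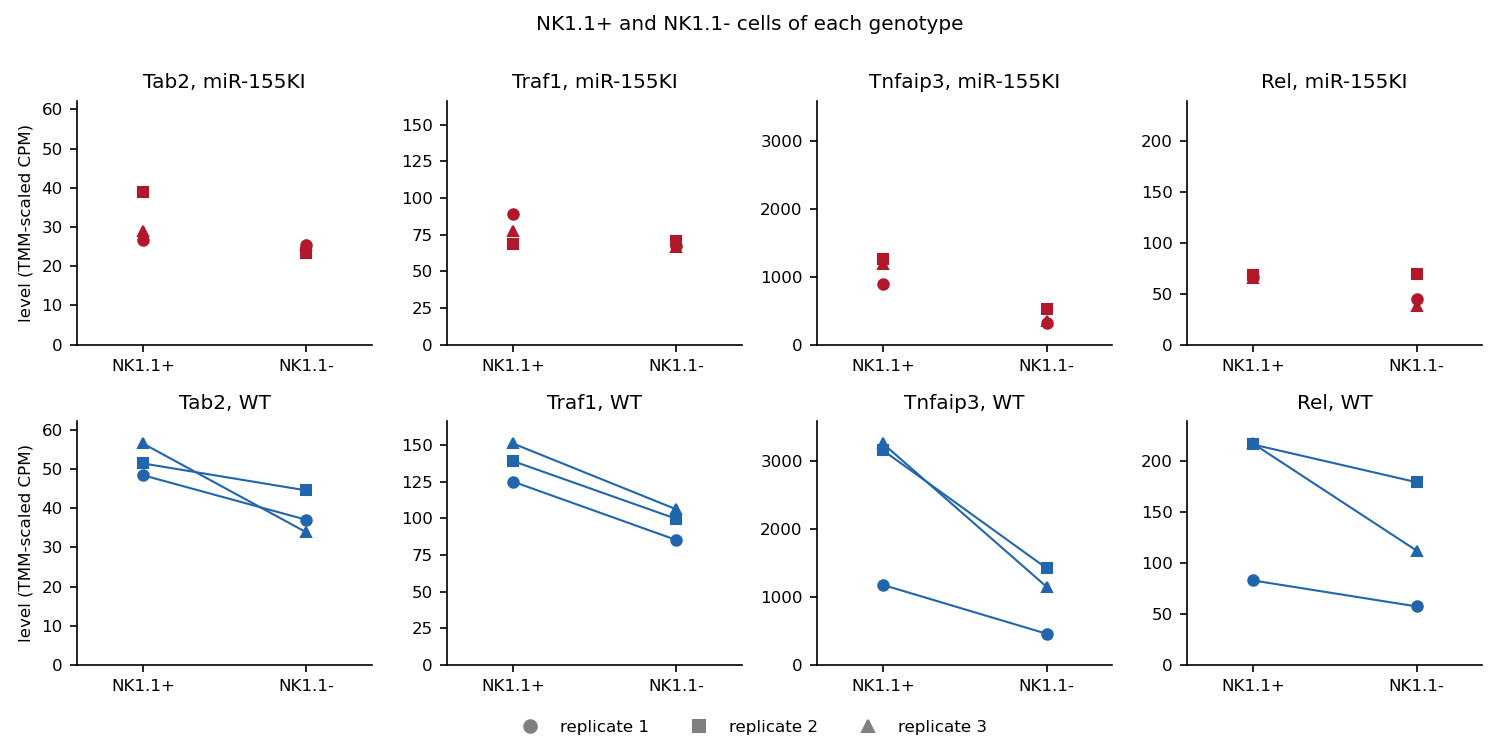
Levels of *Tab2*, *Traf1*, *Tnfaip3* and *Rel* in NK1.1+ (left) and NK1.1- (right) libraries of miR-155KI mice (top) and WT mice (bottom), in TMM-scaled CPM. Lines join WT libraries with the same replicate number, and in all 3 WT pairs each of the 4 genes is higher in NK1.1+ cells.

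Another 64 genes of the pathway, in 10 lists by branch, showed how the members stood in their surroundings. Of 63 tested in NK1.1- cells 3 were higher and 1 lower in miR-155KI by edgeR, where 3.44% of all genes were called in either direction. At an unadjusted p under 0.05 by edgeR 26 of the 63 passed, beside 18.5% of all genes. Their median log2 fold change was -0.07, with list medians from -0.89 (NF-kB subunits) to 0.16 (TAK1 to MAPK branch). With WT replicate 1 as the only WT library the medians of these lists were -0.10 and 0.15. Of 62 tested in NK1.1+ cells none was called, with a median of -0.15. There 14 had an unadjusted p under 0.05 by edgeR, beside 11.8% of all genes. The genes called higher were *Irak3*, a brake on interleukin 1 and Toll-like receptor signals, *Tnip2*, which binds the *Tnfaip3* product, and *Traf5*, an adaptor of TNF receptors. *Irak3* had 22.1, 21 and 29.6 CPM in miR-155KI NK1.1- libraries, against 10.5, 11.2 and 13.3 CPM in WT NK1.1- libraries (log2 fold change 1.03, adjusted p = 0.0087 with edgeR). *Tnip2* had 71.7, 69.2 and 73.8 CPM in miR-155KI NK1.1- libraries, against 41.5, 46.8 and 51.9 CPM in WT NK1.1- libraries (0.59, adjusted p = 0.0181 with edgeR). For both genes the WT libraries were close to each other, unlike those of the inhibitors above. *Traf5* had 109, 107 and 128 CPM in miR-155KI NK1.1- libraries, against 64.3, 73.6 and 90.6 CPM in WT NK1.1- libraries (0.57, adjusted p = 0.037 with edgeR), opposite in direction to *Traf1*. Without WT replicate 1 no gene of the TRAF family list was called higher, so the call of *Traf5* was lost. *Map3k8*, a kinase held in check by the *Nfkb1* product, was the gene called lower, with 6.43, 6.91 and 8.24 CPM in miR-155KI NK1.1- libraries, against 9.62, 21.2 and 16.6 CPM in WT NK1.1- libraries (-1.16, adjusted p = 0.04 with edgeR). Its lowest WT library was replicate 1, which lay close to the miR-155KI libraries.

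The other subunit and inhibitor genes were not called. *Relb* had 64.6, 67 and 71.6 CPM in miR-155KI NK1.1- libraries, against 74, 132 and 170 CPM in WT NK1.1- libraries (log2 fold change -0.91, adjusted p = 0.147 with edgeR). *Nfkb2* had 65, 81.5 and 63.1 CPM in miR-155KI NK1.1- libraries, against 75.2, 156 and 151 CPM in WT NK1.1- libraries (-0.89, adjusted p = 0.175 with edgeR). In both, WT replicate 1 was again the lowest WT library. The IkB family genes *Nfkbib*, *Bcl3* and *Nfkbie* had -0.60, -0.69 and -0.79, and *Malt1* and *Bcl10*, of the antigen receptor branch, -0.77 and -0.54, none of them called. The nearest to the threshold were the TNF family ligand gene *Ltb* (-0.65, adjusted p = 0.0506 with edgeR) and *Traf2* (-0.40, adjusted p = 0.065 with edgeR). Next came *Tnfrsf9*, higher by 0.44 (adjusted p = 0.0841 with edgeR), and *Irak2*, at -0.88 (adjusted p = 0.0945 with edgeR). *Zc3h12a*, an RNase gene that limits NF-kB target RNAs, had -1.32 with an SE of 0.44. *Rela*, the main activating subunit, differed by -0.15 (SE 0.11), and the IKK genes *Ikbke*, *Chuk* and *Ikbkg* by 0.20, 0.20 and -0.07. Without WT replicate 1, 19 of the 63 genes were lower and 3 higher in NK1.1- cells, beside 3.97% of all genes lower and 2.67% higher. With WT replicate 1 as the only WT library none of the 63 was lower and 2 were higher, beside 0.594% of all genes higher.

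Between the pools, 16 of 62 of these genes were higher and 4 lower in NK1.1+ cells of miR-155KI mice (32.3% called, beside 14.1% of all genes). In WT mice 9 of 63 were higher and 3 lower (19%, beside 20.8% of all genes) without the pairing, and 25 were higher and 5 lower with the replicate block, which called 29.9% of all genes. Those called in both genotypes without the pairing held the same direction. Higher in both were the subunit gene *Rela* (0.51 in miR-155KI and 0.59 in WT mice), the IKK gene *Ikbkb* (0.62 and 0.42), *Sharpin* (0.58 and 0.37), *Irak2* (1.88 and 1.73), *Peli1* (1.27 and 1.04), *Tnfrsf18* (1.23 and 1.18) and *Ltb* (1.52 and 0.91). Lower in both were *Irak3* (-3.74 and -2.96) and *Ikbke* (-0.64 and -0.53). *Irak3* was thus higher in miR-155KI than in WT NK1.1- cells and far lower in NK1.1+ than in NK1.1- cells. Called in miR-155KI mice, and in WT mice not without the pairing, were *Nfkb2* (0.71), *Relb* (0.56), *Nfkbie* (0.94), *Nfkbiz* (1.18), *Nfkbid* (adjusted p = 0.0217 with edgeR), *Traf4* (0.80), *Bcl10* (0.51), *Malt1* (1.12) and *Map3k8* (1.28), all higher, and *Traf5* (-0.57) and *Tnip2* (-0.91), lower. With the replicate block, for which the WT libraries pair, all of these but *Bcl10* (0.14, edgeR adjusted p = 0.391) and *Traf5* (0.21, edgeR adjusted p = 0.269) were called in WT mice too and in the same direction, for example *Malt1* (1.30, edgeR adjusted p = 7.10e-06) and *Nfkb2* (0.59, edgeR adjusted p = 0.00253). In WT mice *Birc2* (0.59) and *Mapk14* (0.49) were called higher and *Tnfrsf4* (-1.25) lower. None of the 63 genes tested passed the test of the difference between the pools' genotype effects (2 had an unadjusted p under 0.05 by edgeR), so the pool differences of these genes are not shown to differ between genotypes.

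**Figure D5:**
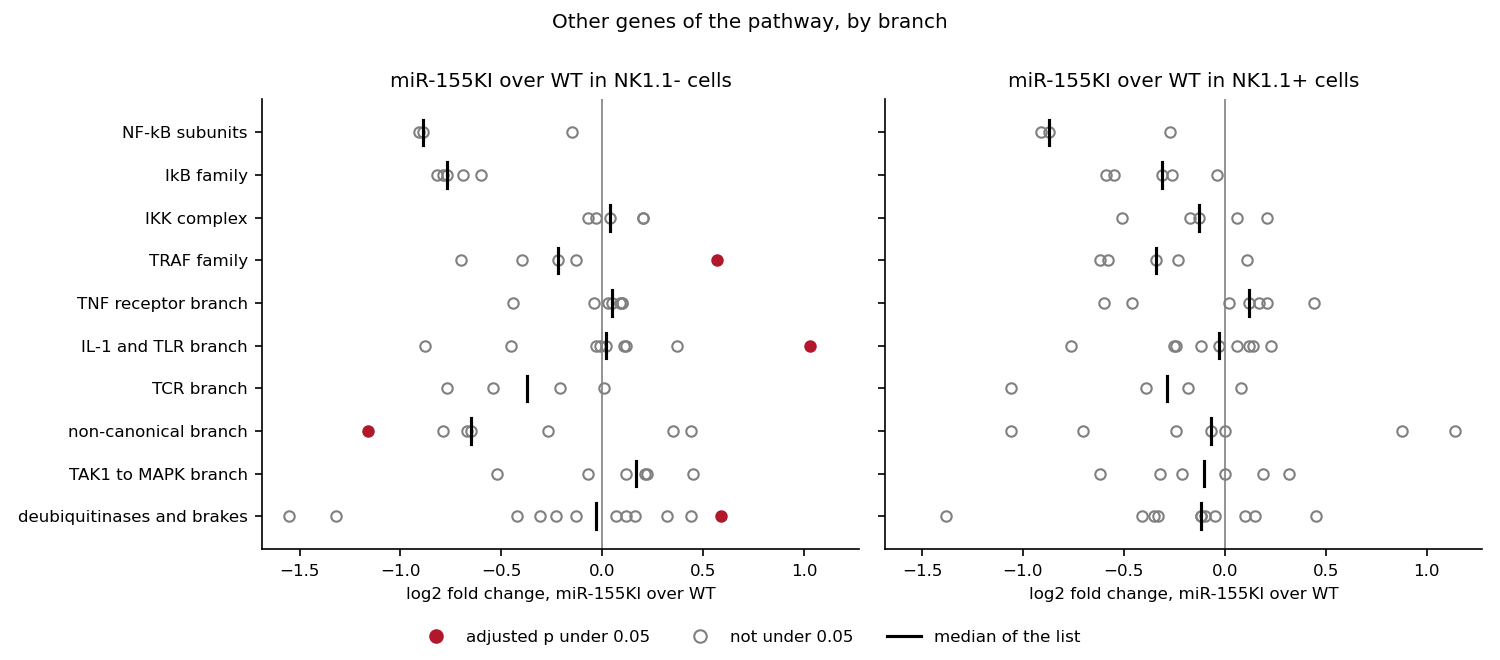
Log2 fold change, miR-155KI over WT, of the other pathway genes, the NK1.1- pool on the left and the NK1.1+ pool on the right, 1 row per list, with the median of each list as a black bar. Filled points have an adjusted p under 0.05 by edgeR: *Traf5*, *Irak3* and *Tnip2* above 0 and *Map3k8* below 0, all in NK1.1- cells.

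The genes whose pattern over the 12 libraries was nearest to that of *Tab2*, by the root-mean-square difference of centred log2 levels among 3688 genes, were *Sdcbp* (0.18), *Bcl2a1d*, *Tle4*, *Carhsp1* and *Atp8b4* (0.20 each). Of the members ranked, *Traf1* stood at 24 by this measure (0.24), ahead of *Nfkb1* (461), *Nfkbia* (732), *Rel* (1258) and *Tnfaip3* (2659). *Tab1*, *Map3k7* and *Traf6* varied too little to be ranked, and *Tab3* was too scarce. Among these *Traf6* differed from *Tab2* by 0.31, less than *Nfkb1* (0.40). For *Tnfaip3*, whose highest library was 10.4 times its lowest, the nearest of 634 genes were *Gpr132* (0.17), *Nr4a3* (0.24), *P2ry10* (0.25), *Icam1* (0.26) and *Mxd1* (0.28), and *Rel* ranked 41 (0.49). The points of each gene share their libraries and groups, so these are descriptions of likeness.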

How the data were processed

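The 12 RNA-seq libraries, 3 per group, were grouped by the labels. Values came from the authors as whole-number counts by gene, not normalized, and as a deposited signal titled CPM, which equals the counts multiplied by a constant for each library. Per the submitters' notes reads were demultiplexed with bcl2fastq 2.17.1.14 and mapped to GRCm38 (mm10). The aligner and the counter are not given in the sources used here, nor whether strand was used. The labels name a low-input amplification kit and the study's methods another library kit. Deposited signal values were used only to check the counts. Rows named as dates by a spreadsheet (27 rows, 0.249% of counts) were kept.

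Counts were fitted with edgeR 4.0.16 in R 4.3.3 (TMM, default filter on low counts, robust quasi-likelihood test), each pair of groups alone and the interaction over all libraries, and p-values were adjusted by Benjamini-Hochberg over all genes tested, with a threshold of 0.05. Levels are CPM, counts scaled to library size, with 1 TMM scaling over all 12 libraries. SEs are the size of the log2 fold change over the square root of F. Levels per kilobase use the union exon length of protein-coding transcripts in GENCODE M21. The test was checked on simulated data. The members and gene lists were chosen with earlier results of these data known. All 10 members were named, and of the pathway lists some of the genes with the smallest p in NK1.1- cells, and those that passed in another comparison. Likeness of pattern to *Tab2* and to the member of widest spread was sought among genes that averaged 10 CPM or more and whose SD was at least 0.75 times the member's. Alternatives were DESeq2 1.42.0, limma 3.58.1 (voom, and log2 CPM with a pseudocount of 1 or 0.1), RLE scaling, no filter, at least 10 counts in every library, no robust option, a replicate block, all libraries in 1 fit, WT replicate 1 as the only WT library, a covariate for the ratio of Y-linked RNA to *Xist*, and leaving out each library.

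Pairing was checked by the correlation of deviations from the group means in same-numbered libraries. It was 0.374, 0.267 and 0.161 between the WT pools, all over 0.1, and 0.134, 0.0915 and 0.0705 between the miR-155KI pools. Between genotypes it was 0.0953, 0.204 and 0.0942 in NK1.1- cells and -0.0519, 0.028 and 0.0169 in NK1.1+ cells. Libraries with different numbers reached at most 0.151, 0.00807, 0.0148 and 0.0499 in the same order of comparisons. Only the WT pools were treated as paired. Same-numbered values also exceeded all others between the miR-155KI pools and between genotypes in NK1.1- cells. *Tab3*, *Map3k7* and *Nfkb1* overlap other annotated genes, whose reads may not be told apart from theirs.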

Additional observations from a re-analysis of the deposited data

How the results depend on the processing

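Genes called in NK1.1- cells (457) numbered 962 with DESeq2, 1048 with no filter, 737 with the replicate block, 139 with all 12 libraries in 1 fit, 157 with WT replicate 1 as the only WT library, 114 with the covariate, 2457 at an unadjusted p under 0.05, and 186 to 917 without 1 library. The members called there (2) were 1 with limma-voom, 0 with limma on log2(CPM + 1) or log2(CPM + 0.1), 0 with all 12 libraries in 1 fit, 0 with WT replicate 1 as the only WT library, 0 with the covariate, and 0 to 5 without 1 library (5 without WT replicate 1, 1 without WT replicate 3, 0 without any other). In NK1.1+ cells the genes called (3) were 241 with DESeq2, 1 with limma-voom, 282 with no filter, 7 with the replicate block, 60 with all 12 libraries in 1 fit, 1 with WT replicate 1 as the only WT library, 1 with the covariate, 1539 unadjusted, and 1 to 125 without 1 library. The members called there (0) were 3 with DESeq2, 3 with no filter, 1 with all 12 libraries in 1 fit, 4 unadjusted, and 0 to 3 without 1 library (3 without WT replicate 1). Between the WT pools 2819 genes became 4531 unadjusted and 1832 to 3264 without 1 library, and the members called (1) were 4 with the replicate block, 2 unadjusted and 0 to 1 without 1 library. Between the miR-155KI pools 1821 genes became 3543 unadjusted and 788 to 2542 without 1 library, and the members called (1) were 0 with all 12 libraries in 1 fit and 1 to 2 without 1 library. The genes higher among those called were 1025 of 1821 there, and 774 of 1912 with limma on log2(CPM + 1) and 754 of 1863 on log2(CPM + 0.1). For the difference between pools the genes called (4) were 124 with DESeq2, 0 with limma-voom, 7 with RLE scaling (4 of them higher, against 1 of 4), 162 with no filter, 10 with at least 10 counts in every library, 23 with the replicate block, 1167 unadjusted, and 3 to 46 without 1 library, and no member was called in any setting.

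The replicate block rests on a pairing only between the WT pools, where it raised the members called to 4. In NK1.1- cells it left *Tab2* and *Traf1* called (edgeR adjusted p = 0.03 and 0.0198), although the numbers there are not shown to pair the mice, and in NK1.1+ cells, between the miR-155KI pools and in the interaction it changed no call of a member. No called member turned its direction in any setting. Depth limited *Tab3* most, at 28 to 115 counts per library.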

Other observations

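NF-kB target genes outside the pathway lists also differed between WT libraries. The 20 listed NF-kB target genes summed to 2314, 2936 and 2157 CPM in miR-155KI NK1.1- libraries, against 2874, 4897 and 4329 CPM in WT NK1.1- libraries, and to 4699, 6612 and 5797 CPM in miR-155KI NK1.1+ libraries, against 6297, 9464 and 7959 CPM in WT NK1.1+ libraries. WT replicate 1 was the lowest WT library in each pool. Of 19 tested in NK1.1- cells only the chemokine gene *Ccl5* was called, beside 3.44% of all genes. Its log2 fold change was -0.91 (SE 0.17, adjusted p = 0.00963 with edgeR), and the list median was -0.50. *Ccl5* is also a gene of *i*NKT1 cells, whose markers were lower in the same libraries. With WT replicate 1 as the only WT library the list median was -0.25. Without WT replicate 1 the median was -0.68 and 7 of the 19 genes were lower, beside 3.97% of all genes. In NK1.1+ cells none of 20 tested was lower without WT replicate 1, beside 0.799% of all genes.

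Of 18 DUSP and immediate early genes 1 was higher and 1 lower in miR-155KI NK1.1- cells, beside 3.44% of all genes called in either direction. Such genes respond within minutes to receptor signals and to handling of cells. *Egr2*, a target of antigen receptor signals, was higher (0.69, adjusted p = 0.0387 with edgeR) and the phosphatase gene *Dusp5* lower (-1.15, adjusted p = 0.0495 with edgeR). The list summed to 3222, 4145 and 3369 CPM in miR-155KI NK1.1- libraries, against 4005, 5658 and 5101 CPM in WT NK1.1- libraries. These summed ranges overlapped. In NK1.1+ cells the list summed to 6741, 10936 and 9209 CPM in miR-155KI libraries, against 10007, 11788 and 9682 CPM in WT libraries. In this sum, which abundant genes weigh most, WT replicate 1 did not stand apart and the lowest WT library was replicate 3. Gene by gene, 4 of the 18 were lower and none higher there without WT replicate 1, beside 0.799% of all genes lower. In NK1.1- cells the list median was -0.45 with all WT libraries and -0.18 with WT replicate 1 as the only WT library. Leaving out WT replicate 1, 6 of the 18 genes were lower and 1 higher in NK1.1- cells, beside 3.97% and 2.67% of all genes.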
